A study of Homo sapiens with 16 samples.

Results

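AsPC-1 cells held in ICG-001 for 24 h were compared with AsPC-1 cells held in it for 6 h, to see which transcripts went on changing, moved back or stayed flat while the drug was present. The arrays were chosen by their labels and were 6 of the 16 of the study, 3 labelled ICG-001 at T6 and 3 labelled ICG-001 at T24. AsPC-1 is a cell line from a human pancreatic adenocarcinoma. The cells were grown in RPMI with 10% FCS to 70% confluency and then kept in that medium with 10 µM ICG-001 or with its vehicle DMSO for 6 or 24 h, 3 arrays for each. The 6 DMSO arrays served to set the change with the drug against the change over the same hours without it, and 4 further arrays of cells transfected with control or CTNNB1 siRNA entered only the shared normalization and estimate of spread. Total RNA was read on Affymetrix arrays. The replicates are labelled as biological without word on whether each was its own culture, so the p-values measure the spread between these arrays. Of the markers of pancreatic duct epithelium, KRT7, KRT19, CDH1 and MUC1 were measured and had a summed intensity of 2769 to 2850 on the ICG-001 arrays at 6 h and of 2445 to 2578 at 24 h.

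ICG-001 is known as a ligand of the coactivator CBP that keeps it from pairing with β-catenin, the effector of Wnt signalling. Amino acid shortage, stress in the endoplasmic reticulum and other insults raise the transcription factor ATF4, which turns on genes for amino acid synthesis and transport and also the genes that later shut this integrated stress response down. Entry into the S phase of the cell cycle rests on E2F transcription factors, which drive genes for DNA replication such as the MCM helicase and GINS proteins.

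From 6 to 24 h with ICG-001, 912 of 5250 genes changed (17.4%; limma, adjusted p under 0.05 by the Benjamini-Hochberg method), 446 of them upwards (8.5%) and 466 downwards (8.88%). The 3 arrays of 1 time did not overlap with the 3 of the other for 33.8% of all genes, 14.6% with higher and 19.2% with lower values at 24 h. Changes of at least 2-fold were found for 78 genes that rose and 55 that fell. In the scaling as deposited, without the quantile normalization used here, 1009 genes were called and 61.7% of them rose, against 48.9%. The median change over all 5250 genes was -0.03 on the log2 scale after normalization and 0.06 in the deposited scaling. Over the same hours in DMSO 453 genes changed (8.63%), 246 upwards (4.69%) and 207 downwards (3.94%), of which 37 changed by at least 2-fold. The change differed between drug and vehicle for 410 genes (7.81%), being more positive with ICG-001 for 204 (3.89%) and more negative for 206 (3.92%). Those 2 time courses share no array. Of the 446 genes that rose with ICG-001, 182 (40.8%) rose in DMSO too, and these were 74% of the rises in DMSO. Of the 466 that fell with ICG-001, 135 (29%) fell in DMSO, which was 65.2% of the falls there. Across the 5250 genes the 2 changes had a Pearson correlation of 0.413 and a Spearman correlation of 0.307, a description over genes of one cell line, which are not independent replicates.

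**Figure D1:**
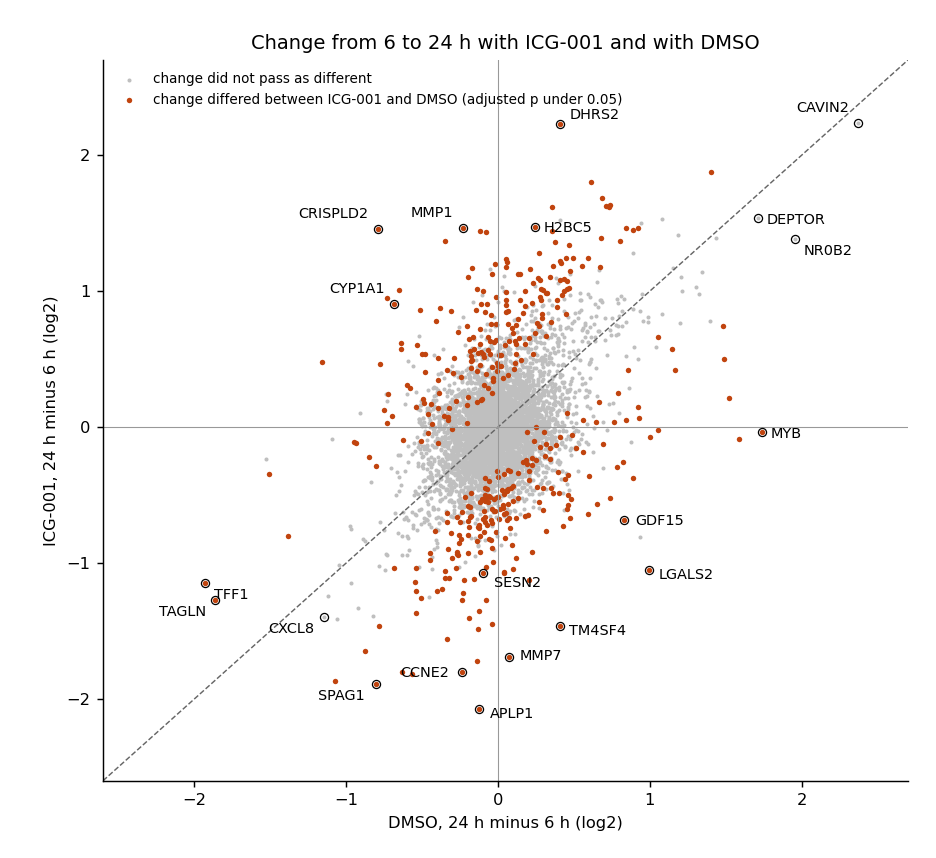
Log2 change from 6 to 24 h of each of 5250 genes with DMSO (horizontal) and with ICG-001 (vertical), 3 arrays per group, with the dashed line at equal change and orange points for the 410 genes whose change differed between drug and vehicle. CAVIN2 (2.37 with DMSO, 2.24 with ICG-001) and DEPTOR lie near the dashed line, CRISPLD2, MMP1 and DHRS2 far above it, and LGALS2, TM4SF4, APLP1, MMP7 and MYB far below it.

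At 6 h ICG-001 differed from DMSO for 724 genes (13.8%), with 292 above (5.56%) and 432 below DMSO (8.23%), and at 24 h it did for 1076 (20.5%), with 484 above (9.22%) and 592 below (11.3%). The balance turned in the deposited scaling, where 406 were above and 244 below DMSO at 6 h (62.5% of the called genes above, against 40.3%) and 738 above and 385 below at 24 h (65.7% against 45%). Of the 724, 264 (36.5%) went on in the same direction from 6 to 24 h with the drug, 95 of them raised at 6 h and 169 lowered. Another 185 (25.6%) moved back, that is, changed from 6 to 24 h against the direction of the early drug effect, 89 raised and 96 lowered at 6 h. A further 205 (28.3%) stayed flat, which means that the change was not called and that its 95% interval lay within -0.5 to 0.5 on the log2 scale. For 70 (9.67%) the interval was too wide for that. Among all 5250 genes 1581 (30.1%) were not called and had an interval within those limits. The ICG-001 arrays at 6 h enter both the early drug effect and the change from 6 to 24 h, with opposite signs, so an error in them shifts a gene towards moving back, and these counts are a description. Another 463 genes did not differ from DMSO at 6 h and changed from 6 to 24 h, 255 upwards and 208 downwards. Moving back refers to the drug-treated cells alone. SPRY1, a feedback inhibitor of growth factor signalling, rose by 1.17 ± 0.10 with ICG-001 and by 1.16 ± 0.10 in DMSO, and its drug effect was -0.95 at 6 h and -0.93 at 24 h.

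Transcripts for DNA replication and entry into S phase went on falling under the drug. Of 60 listed genes 23 were measured. Of these, 20 fell from 6 to 24 h with ICG-001 and 0 rose, with a median change of -0.84 beside -0.03 over all genes. All deposited probe sets varied across the arrays of the study, with a coefficient of variation of at least 0.4. A change with the drug adds to that variation, so 20 of 23 describes members that vary and not the 60 listed. Why the other listed genes were absent was not tested. The same limit holds for the counts of the other gene lists. In DMSO 6 of the 23 fell and 0 rose, with a median of -0.13 beside -0.02 over all genes. The change was more negative with the drug than in DMSO for 18. At 6 h 19 were already below DMSO, and all 19 went on falling. In RNA from whole cultures, fewer cells in S phase and less of these transcripts per cell cannot be told apart.

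CCNE2, cyclin E2, which drives the start of S phase, had intensities of 1283, 1177 and 1239.8 at 6 h and 354, 344 and 338 at 24 h with ICG-001. In DMSO it had 2133, 2118 and 2209.5 at 6 h and 1779, 1821 and 1776 at 24 h. The drug arrays at 24 h were far below all others and the groups did not overlap. The change with the drug was -1.80 ± 0.05 on the log2 scale (± SE; adjusted p = 5.87e-14) against -0.24 ± 0.05 in DMSO, a difference of -1.56 ± 0.07 (adjusted p = 2.68e-10). MCM6, a subunit of the replicative helicase, had 177, 171 and 156 at 6 h and 60.4, 64.5 and 44.9 at 24 h with the drug, and 238, 259 and 243 at 6 h and 239, 249 and 216 at 24 h in DMSO. The DMSO arrays of the 2 times overlapped, whereas with the drug every 24 h array was below every 6 h array. MCM6 fell by 1.48 ± 0.10 with ICG-001 (adjusted p = 3.39e-09), and its change in DMSO was -0.13 ± 0.10 (adjusted p = 0.707).

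WDR76, a chromatin-associated protein, went from 283, 303 and 289.5 at 6 h to 87.6, 88.8 and 90.2 at 24 h with ICG-001, a change of -1.72 ± 0.09, while its DMSO arrays ranged over 333, 380.3 and 353 at 6 h and 326, 322 and 341 at 24 h. FAM111B, a protease, was the member with the largest early drug effect (-1.69 at 6 h) and reached -2.86 at 24 h. Its intensity was 289, 278 and 214 at 6 h and 74.3, 67.4 and 75.2 at 24 h with the drug. It also fell in DMSO, by 0.63 ± 0.10 (adjusted p = 0.000242). GINS2 (-1.44 ± 0.06), HELLS, a chromatin remodeller (-1.12 ± 0.14), RRM1, the large subunit of ribonucleotide reductase (-1.27 ± 0.06), and the checkpoint mediator CLSPN (-0.70 ± 0.07) fell too, and for each the change in DMSO was smaller than with the drug, with adjusted p for that difference of 8.78e-10, 0.00011, 5.45e-08 and 0.000346. HELLS was dim, and its change was -1.71 with 1 and -0.56 with 64 added before log2. The E2F genes differed from each other: E2F8 fell by 0.87 ± 0.06, E2F1 by 0.68 ± 0.14 and E2F3 by 0.37 ± 0.09, and E2F2, whose intensities were 27.6 to 38.9 on the ICG-001 arrays, changed by -0.08 ± 0.17 (adjusted p = 0.858). E2F1 was the only member that fell over time without differing from DMSO at 6 h, and with 64 added its change was -0.44. TFDP1, the partner that pairs with E2F proteins on DNA, was outside the list and fell from 801, 792 and 761 to 229.8, 209 and 224, by 1.81 ± 0.06 with the drug against 0.56 ± 0.06 in DMSO.

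For ASF1B, a histone chaperone of replicating cells, the fitted change with ICG-001 was -0.81 ± 0.44 (adjusted p = 0.272) although its arrays read 1308, 1299 and 1215 at 6 h and 778, 695 and 659.7 at 24 h. Its DMSO arrays at 24 h read 1602, 1619 and 12581, and the single high value widened the shared estimate of spread. Without DMSO 24 h replicate 3 the change was -0.81 with an adjusted p of 5.06e-08.

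Promoters of the 3 replication genes with the largest falls that differed from DMSO, did not pass the test in DMSO and had an entry in the RefSeq promoter table (GRCh38.p14) are shown because these genes fell together. Each line gives the 250 bases before the transcript start, 5′ to 3′ on the gene's strand, with matches to the E2F site letters TTTGGCGC or TTTCCCGC, or their reverse complements, in capitals. MCM6 is at chr2:135876444-135876693, minus strand, GINS2 at chr16:85688955-85689204, minus strand, and HELLS at chr10:94545538-94545787, plus strand.
MCM6: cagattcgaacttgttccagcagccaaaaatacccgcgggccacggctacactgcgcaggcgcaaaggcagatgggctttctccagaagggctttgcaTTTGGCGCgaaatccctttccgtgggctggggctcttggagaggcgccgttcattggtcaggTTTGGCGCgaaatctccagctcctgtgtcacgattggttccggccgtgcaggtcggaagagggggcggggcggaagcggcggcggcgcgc
GINS2: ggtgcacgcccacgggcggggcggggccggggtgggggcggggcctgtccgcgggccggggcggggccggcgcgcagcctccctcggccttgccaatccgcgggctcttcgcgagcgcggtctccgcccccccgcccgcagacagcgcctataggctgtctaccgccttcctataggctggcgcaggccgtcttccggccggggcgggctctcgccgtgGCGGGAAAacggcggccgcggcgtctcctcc
HELLS: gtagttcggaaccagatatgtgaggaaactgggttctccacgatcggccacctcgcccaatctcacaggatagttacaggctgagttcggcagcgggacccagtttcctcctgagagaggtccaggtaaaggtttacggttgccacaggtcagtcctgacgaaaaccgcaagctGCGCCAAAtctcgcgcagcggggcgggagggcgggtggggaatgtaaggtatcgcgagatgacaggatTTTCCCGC
MCM6 held TTTGGCGC at 152 to 145 and at 90 to 83 bases before its start, GINS2 a match at 31 to 24 bases and HELLS matches at 76 to 69 and 8 to 1 bases. Of 16 measured members of the list with an entry, 7 held either string in any of their listed promoters. Among all 35116 promoters of that length, each counted singly, the share was 1.93%. A gene with several starts has more windows that can match, so these shares are not of like units. Such a match describes letters and is no evidence of binding.

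Mitotic genes were few in the table, 6 of 50 listed, of which 2 fell and 0 rose with ICG-001. CDK1, the kinase that starts mitosis, fell by 0.66 ± 0.08 with ICG-001 (adjusted p = 2.67e-06), and BIRC5, which encodes survivin, by 0.59 ± 0.05 (adjusted p = 5.72e-08). BIRC5 read 2006, 2199.6 and 2021 at 6 h and 1458, 1398 and 1414 at 24 h with the drug and 2226, 2232 and 2222 at 6 h and 2361, 2193 and 2361 at 24 h in DMSO. The drug arrays at 24 h were below all others. At 6 h the drug arrays already lay below the DMSO arrays of that time, with a drug effect of -0.52 ± 0.05 (adjusted p = 2.51e-07). The difference between the time courses was -0.62 ± 0.07 (adjusted p = 1.16e-05). BUB1, CENPI, KIF20B and ASPM did not pass the test over time.

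Large falls outside the cell cycle were found for genes of varied functions. APLP1, a relative of the amyloid precursor protein, had 493, 427 and 448 at 6 h and 90.6, 115 and 121 at 24 h with ICG-001, a change of -2.07 ± 0.11 (adjusted p = 7.3e-11). In DMSO it had 535, 545 and 557 at 6 h and 536, 439.7 and 589 at 24 h, so the drug arrays at 24 h were far below the 9 others. MMP7, matrilysin, a protease and known Wnt target, fell from 1299, 1308 and 1360.4 to 419, 396 and 382 with the drug and read 1574, 1590.0 and 1652 at 6 h and 1743, 1662 and 1605 at 24 h in DMSO. The difference of the 2 time courses was -1.94 ± 0.15 for APLP1 and -1.76 ± 0.21 for MMP7 (adjusted p = 8.25e-08 and 1.16e-05). EMP2, a tetraspan membrane protein, fell by 1.56 ± 0.09, and its 2 dimmer probe sets changed by -0.95 and -1.26. BCL2L15, a BCL2 family member, fell by 1.35 ± 0.10, and KRT7, a keratin of ductal epithelium, fell by 0.77 ± 0.09. The second probe set of KRT7 changed by -0.15 and was not called.

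In all, 14 genes fell with ICG-001 and rose in DMSO, and 16 rose with ICG-001 and fell in DMSO. Of the first group, LGALS2, which encodes galectin-2, fell from 398, 416 and 365 to 202, 208 and 190.3 with ICG-001 and rose from 688, 702 and 693 to 1511, 1260.4 and 1317 in DMSO. TM4SF4, a membrane protein of the digestive tract and liver, fell from 886, 936 and 943 to 309, 344 and 336 with the drug and went from 1109, 1223 and 1224 to 1666, 1501 and 1428 in DMSO. None of these groups overlapped between 6 and 24 h. The changes with the drug were -1.05 ± 0.08 and -1.46 ± 0.08, and those in DMSO 1.00 ± 0.08 and 0.41 ± 0.08, each with an adjusted p of at most 0.00118. SPAG1, an assembly factor of ciliary dynein, TBC1D31, a TBC domain protein, and HKDC1, a hexokinase-like enzyme, fell in both. Their changes were -1.89, -1.87 and -1.65 with ICG-001 against -0.80, -1.07 and -0.87 in DMSO, and the difference passed the test for each (adjusted p = 2.23e-06, 0.000119 and 1.73e-05).

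**Figure D2:**
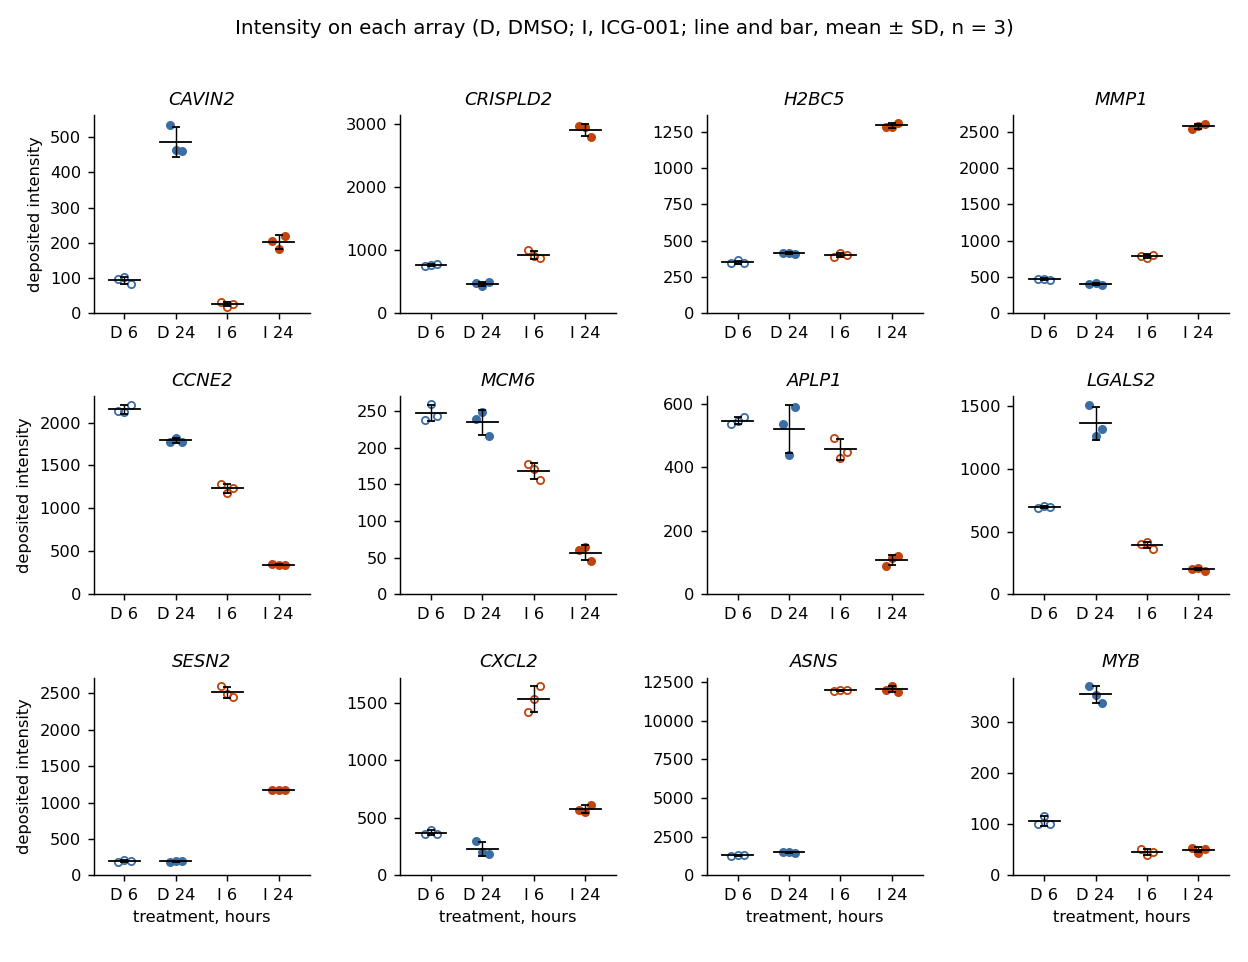
Deposited intensity (linear scale, from 0) of 12 genes on the 3 arrays of DMSO 6 h, DMSO 24 h, ICG-001 6 h and ICG-001 24 h; points are arrays, and lines and bars the mean and SD. CCNE2, MCM6, APLP1 and LGALS2 are lowest and CRISPLD2, H2BC5 and MMP1 highest with ICG-001 at 24 h, SESN2 and CXCL2 are highest with ICG-001 at 6 h, ASNS is level near 12000 with the drug, CAVIN2 rises in both treatments, and MYB rises with DMSO.

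Part of the stress genes moved back towards the DMSO level. Of 40 listed genes of the integrated stress response and ATF4 targets, 25 were measured. From 6 to 24 h with ICG-001 14 of them fell and 0 rose, with a median of -0.32, whereas in DMSO 3 rose and 2 fell with a median of 0.02. Of the 14, 13 moved back. HSP90B1, an endoplasmic reticulum chaperone, was below DMSO at 6 h (-0.55) and further below at 24 h (-0.75). The change was more negative with the drug than in DMSO for 8 of the 25 and more positive for 0. Of the 25, 20 were above DMSO at 6 h and 20 at 24 h, and the median drug effect was 1.34 at 6 h and 0.88 at 24 h. In the deposited scaling 12 fell and 1 rose.

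SESN2, a stress-induced brake on mTOR signalling, had 2597, 2494 and 2449 at 6 h and 1177, 1172 and 1167 at 24 h with ICG-001. In DMSO it had 190.1, 206 and 201 at 6 h and 186, 196 and 195 at 24 h. The drug groups were apart, and the 24 h arrays stayed well above every DMSO array. SESN2 fell by 1.07 ± 0.06 (adjusted p = 4.27e-10), and its drug effect was 3.29 at 6 h and 2.31 at 24 h. GDF15, a secreted stress cytokine, fell from 1612, 1582 and 1602 to 1074, 981 and 953 with the drug and rose from 84.4, 75 and 73.7 to 145, 163 and 135 in DMSO, a difference between time courses of -1.51 ± 0.11 (adjusted p = 5.08e-08). PPP1R15A, or GADD34, which reverses the phosphorylation of eIF2α that starts this response, fell by 1.03 ± 0.12 with ICG-001 and by 0.52 ± 0.12 in DMSO, and that difference did not pass (adjusted p = 0.105).

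DDIT3, or CHOP, the stress-linked transcription factor, went from 1766, 1768 and 1729 at 6 h to 1297, 1216 and 1219.6 at 24 h with the drug, and MTHFD2, an enzyme of mitochondrial folate metabolism, from 631, 578 and 600.0 to 429.8, 409 and 405. Both groups were apart for each gene, and the changes were -0.56 ± 0.06 and -0.61 ± 0.10. In DMSO neither passed (adjusted p = 0.736 and 0.1), and the difference from DMSO had an adjusted p of 6.44e-05 for DDIT3 and 0.000329 for MTHFD2. ATF3 (-0.63 ± 0.10), JDP2 (-0.53 ± 0.09), TRIB3 (-0.47 ± 0.06), HERPUD1 (-0.36 ± 0.06) and DNAJB9 (-0.32 ± 0.06) fell as well. The difference from DMSO passed for DNAJB9 (adjusted p = 0.00494) but not for ATF3 (0.0777), JDP2 (0.185), TRIB3 (0.448) or HERPUD1 (0.162). TRIB3 also fell in DMSO, by 0.32 ± 0.06 (adjusted p = 0.000691). On the most variable probe set of the gene, TRIB3 changed by -0.23 and DNAJB9 by -0.65, both called. DDIT4 fell by 0.31 ± 0.06 (adjusted p = 0.00035), which was -0.12 in the deposited scaling (adjusted p = 0.12). Its difference from DMSO did not pass (adjusted p = 0.0521). CTH, cystathionine γ-lyase, fell by 0.24 ± 0.07 (adjusted p = 0.0262), a call that ended in the deposited scaling (-0.18, adjusted p = 0.0717) and with any 1 of the 6 ICG-001 arrays left out. CHAC1, which degrades glutathione, read 1355, 1369.9 and 1403 at 6 h and 1072, 1112 and 1005 at 24 h, and its change of -0.40 ± 0.21 had an adjusted p of 0.245 with all 16 arrays in the model and of 1.43e-05 with the 6 ICG-001 arrays alone.

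Other genes of the response were flat from 6 to 24 h with the drug. ASNS, asparagine synthetase, had 11933, 11978 and 11959.8 at 6 h and 12004, 12231 and 11843 at 24 h with ICG-001, against 1280.2, 1319 and 1292 at 6 h and 1523, 1481 and 1474 at 24 h in DMSO. The drug arrays of the 2 times overlapped and lay far above DMSO. Among the 9554 probe sets ASNS ranked between 1 and 3 on every ICG-001 array and between 162 and 215 on the DMSO arrays. Its change over time was 0.10 ± 0.11 with a 95% interval of -0.13 to 0.34, and 0.01 in the deposited scaling (adjusted p = 0.965). At such ranks quantile normalization leaves little room for a further rise, and whether the signal could go higher was not tested. PSAT1, of serine synthesis (0.04, interval -0.15 to 0.23), the neutral amino acid transporter SLC1A4 (-0.22, -0.45 to 0.02) and ERN1, the endoplasmic reticulum stress sensor IRE1α (-0.16, -0.28 to -0.03), were also flat, with drug effects at 6 h of 1.82, 1.83 and 1.67. ERN1 rose in DMSO by 0.34 ± 0.06 (adjusted p = 0.000571), so that its drug effect was 1.17 at 24 h. The difference between its time courses was -0.50 ± 0.08 (adjusted p = 0.000524). With only the 6 ICG-001 arrays in the fit, the change of ERN1 passed the test (adjusted p = 0.0206). ATF4 itself read 11142, 10972 and 10596 at 6 h and 10149, 10236 and 9746 at 24 h with the drug and 4649 to 5275 in DMSO. The deposited values were lower at 24 h without overlap. Its fitted change was 0.00 ± 0.05. It depended on the scaling, at -0.12 as deposited and -0.25 (adjusted p = 0.00684) with arrays centred on their median. The drug effect on ATF4 went from 0.83 at 6 h to 0.57 at 24 h. The difference between its time courses was -0.25 ± 0.07 (adjusted p = 0.0306).

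Promoters of 3 ATF4 targets are shown, the flat ASNS, CHAC1 and the falling SESN2. They are the 250 bases before the start from the same table, with matches to TGATGNAA, the core of the element bound by ATF4 with C/EBP partners, or its reverse complement, in capitals. ASNS is at chr7:97872409-97872658, minus strand, CHAC1 at chr15:40953221-40953470, plus strand and SESN2 at chr1:28259268-28259517, plus strand.
ASNS: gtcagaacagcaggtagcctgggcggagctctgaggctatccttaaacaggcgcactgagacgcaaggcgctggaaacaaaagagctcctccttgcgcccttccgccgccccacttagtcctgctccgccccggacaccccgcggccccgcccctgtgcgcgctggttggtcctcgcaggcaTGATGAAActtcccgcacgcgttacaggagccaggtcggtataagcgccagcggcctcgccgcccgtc
CHAC1: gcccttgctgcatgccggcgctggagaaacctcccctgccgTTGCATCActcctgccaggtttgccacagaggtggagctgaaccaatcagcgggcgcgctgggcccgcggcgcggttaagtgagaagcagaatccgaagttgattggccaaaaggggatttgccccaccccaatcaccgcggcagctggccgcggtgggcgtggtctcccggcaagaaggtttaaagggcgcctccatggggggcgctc
SESN2: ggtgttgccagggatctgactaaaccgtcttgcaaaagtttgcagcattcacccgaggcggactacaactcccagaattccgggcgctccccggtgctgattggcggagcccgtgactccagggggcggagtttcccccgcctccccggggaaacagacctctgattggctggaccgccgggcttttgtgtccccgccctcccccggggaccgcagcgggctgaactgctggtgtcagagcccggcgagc
The ASNS match lay 68 to 61 bases and the CHAC1 match 209 to 202 bases before the start, and the SESN2 window held none. The table lists another start for ASNS, whose window held none. Of 23 measured list members with an entry, 6 held the string in any of their listed promoters. The share was 3.14% among all promoters counted singly, which is not a like unit.

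Of 6 measured aminoacyl-tRNA synthetases, the enzymes that charge tRNA, WARS1 rose and CARS1 and LARS1 fell. WARS1 went from 2364, 2360.1 and 2313 to 3246, 3264 and 3017 with ICG-001 and CARS1 from 751, 807 and 853 to 505, 534 and 423, each without overlap. The changes were 0.34 ± 0.07 (adjusted p = 0.000673) and -0.73 ± 0.10 (adjusted p = 1.2e-05), and for both they differed from DMSO (adjusted p = 0.0133 and 0.0169). A second, nearly as bright probe set of WARS1 changed by 0.10 and was not called. LARS1 fell by 0.49 ± 0.12 with the drug and 0.52 ± 0.12 in DMSO, without a difference that passed (adjusted p = 0.966). Among 5 amino acid transporters SLC7A11, the cystine carrier, fell by 0.60 ± 0.07 and SLC7A5, the large neutral amino acid carrier, by 0.22 ± 0.06, where DMSO showed -0.42 ± 0.07 and -0.85 ± 0.06. For SLC7A5 the fall was smaller with the drug (difference 0.63 ± 0.08, adjusted p = 2.34e-05). Its change with the drug was -0.35 with arrays centred on their median, and it was not called without an intensity trend (adjusted p = 0.129).

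Of 4 lysosome and autophagy genes raised at 6 h, 2 fell and 2 rose further. ULK1, the kinase that starts autophagy, had 722, 725 and 709 at 6 h and 392, 398 and 404 at 24 h with ICG-001, and 81.9 to 104 on the DMSO arrays. MAP1LC3B, which encodes the LC3B protein of autophagosomes, went from 4486, 4453 and 4288 to 2751, 2944 and 2879. Both were still above DMSO at 24 h, by 1.87 ± 0.10 and 0.34 ± 0.05, and their changes of -0.88 ± 0.10 and -0.63 ± 0.05 differed from DMSO (adjusted p = 0.00031 and 5.87e-06). WIPI1, an autophagosome protein, rose by 0.53 ± 0.14 (adjusted p = 0.0106), a rise that was 0.33 with 64 added before log2 and had an adjusted p of 0.0539 without ICG-001 6 h replicate 3. TFEB, the master transcription factor of lysosomal genes, rose by 0.26 ± 0.07 with the drug (adjusted p = 0.0171) and 0.60 ± 0.07 in DMSO (adjusted p of the difference 0.0588). Its call with the drug ended without ICG-001 6 h replicate 2 or 3 or 24 h replicate 1 or 2 (adjusted p = 0.0612, 0.063, 0.0574 and 0.0646) and with arrays centred on their median (adjusted p = 0.0574). None of the other 4 of the 8 measured genes of lysosome and autophagy was called.

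Genes of the p53 pathway and cell cycle arrest moved both ways. Of 12 measured, 2 rose and 7 fell with ICG-001, and the change was more negative than in DMSO for 5. CDKN1A, the CDK inhibitor p21, had 4702, 4473 and 4424 at 6 h and 2567, 2833 and 2575 at 24 h with the drug, and 1605, 1718 and 1762 at 6 h and 1098, 1106 and 1219 at 24 h in DMSO. It was lower at 24 h in both treatments without overlap, and the changes of -0.78 ± 0.08 and -0.66 ± 0.08 had a difference of -0.12 ± 0.12 (adjusted p = 0.756). CCNG2, cyclin G2, fell by 0.37 ± 0.09 with ICG-001 and rose by 0.89 ± 0.09 in DMSO, so that its drug effect went from 1.48 to 0.22. CDKN2B, the inhibitor p15, rose by 0.68 ± 0.10 and 0.78 ± 0.10. SKP2, which marks CDK inhibitors for degradation, was flat and low, at 984, 944 and 939 at 6 h and 948, 1003 and 926 at 24 h with the drug against 2498 to 2793 in DMSO. Another, dimmer probe set of SKP2 fell by 0.60 (adjusted p = 0.000203 over all probe sets).

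Death receptor and survival genes raised at 6 h fell to the range of the DMSO arrays. TNFRSF10B, the TRAIL receptor DR5, read 834, 951 and 879 at 6 h and 409.6, 429 and 399.7 at 24 h with ICG-001 and 389 to 449 in DMSO. MCL1, an antiapoptotic BCL2 relative, read 942, 873 and 853 at 6 h and 458, 492 and 452 at 24 h with the drug. Only the drug arrays at 6 h stood above. TNFRSF10B fell by 1.11 ± 0.07 (adjusted p = 5.86e-10) and its drug effect went from 0.73 to -0.23, while for MCL1 it went from 0.55 to 0.07. MCL1 fell by 0.92 ± 0.07 on the probe set used, and the 3 others changed by -0.34, -0.95 and -1.29, the first of them nearly as bright. Of 10 measured apoptosis regulators 1 rose and 4 fell, and DFFB, a subunit of the apoptotic nuclease, was the riser (0.75 ± 0.12).

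**Figure D3:**
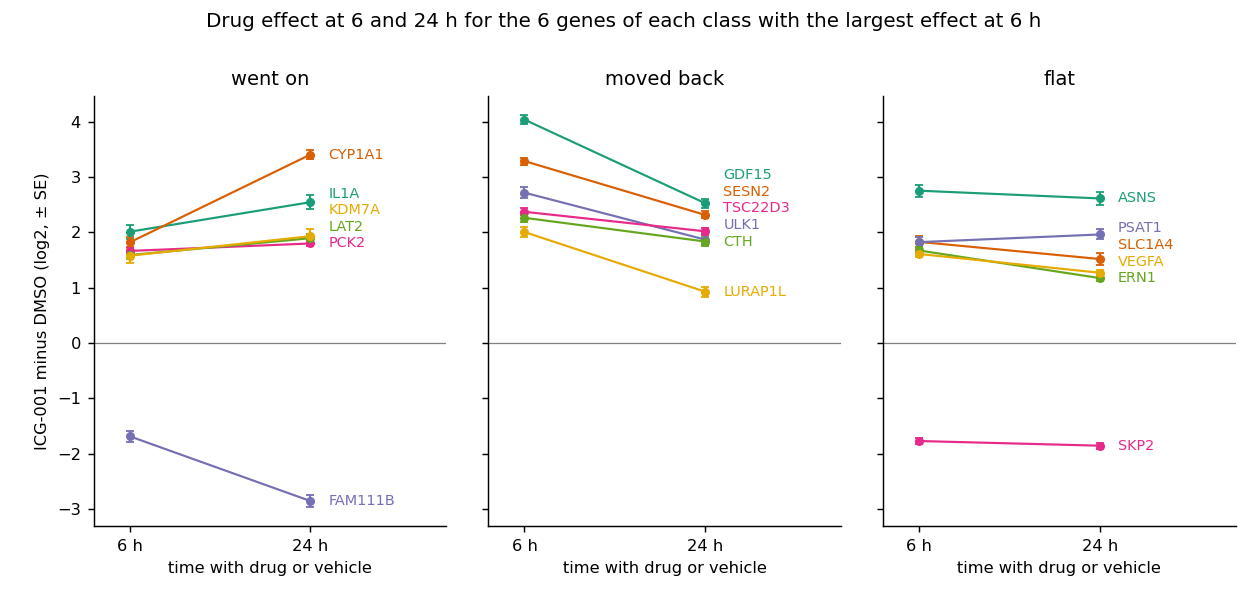
Log2 difference between ICG-001 and DMSO at 6 h and at 24 h (mean ± SE, n = 3 arrays a group) for the 6 genes with the largest effect at 6 h among those that went on, moved back or stayed flat with the drug, joined by a line per gene. GDF15, SESN2 and ULK1 come down between the times yet end well above 0, while ASNS, PSAT1 and SLC1A4 stay near their 6 h level.

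Chemokines raised early by the drug fell by 24 h. CXCL2, a neutrophil-attracting chemokine, had 1421, 1534 and 1647 at 6 h and 569, 550.2 and 612 at 24 h with ICG-001, and 356, 398 and 361 at 6 h and 297, 203 and 182 at 24 h in DMSO. CXCL3, its relative, went from 413, 443 and 419 to 179.9, 201 and 202 with the drug and CCL20, which attracts CCR6-bearing lymphocytes, from 1664, 1606 and 1655 to 1013, 1003 and 1004. CXCL8, interleukin-8, went from 653, 676 and 658 to 232, 262 and 264 with the drug and from 422, 453 and 495 to 234, 219 and 211 in DMSO. All 4 were lower at 24 h in both treatments, with no overlap between the times. The changes with ICG-001 were -1.39 ± 0.13, -1.20 ± 0.10, -0.71 ± 0.06 and -1.40 ± 0.09, and that of CXCL3 differed from DMSO (difference -0.67 ± 0.14, adjusted p = 0.00464). The difference did not pass for CXCL2 (adjusted p = 0.0844), CCL20 (0.0604) or CXCL8 (0.339), but in the deposited scaling it passed for CXCL2 (-0.69, adjusted p = 0.015) and CCL20 (-0.28, adjusted p = 0.0233). The probe sets of CXCL2 and CXCL8 are of a design that can read near-identical transcripts, so the split among CXCL genes is uncertain.

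Interleukin-1 genes went the other way. IL1B rose from 235, 229 and 255 at 6 h to 469.6, 483 and 468 at 24 h with ICG-001, and read 134 to 150.1 in DMSO. IL1A rose from 363, 308 and 321 to 530.3, 503 and 520.1. Both drug groups were apart and far above DMSO at 24 h. The rises were 0.85 ± 0.08 and 0.50 ± 0.12, and the difference from DMSO passed for IL1B (adjusted p = 1.76e-05) and not for IL1A (adjusted p = 0.0819), for which it passed in the deposited scaling (0.61, adjusted p = 0.0432). The dimmer second probe set of IL1A changed by 0.00. In all, 3 of 14 measured cytokine, chemokine and NF-κB target genes rose and 5 fell with the drug, against 1 and 5 in DMSO. IL32, a cytokine, read 203 to 261 on the ICG-001 arrays and went from 225, 236 and 214 to 57, 82 and 104 in DMSO.

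The promoters of CXCL2 and CXCL3 are shown because the pair moved together. The lines hold the 250 bases before the start, with matches to the NF-κB site, GGG followed after any 2 bases by TTTCC, or its reverse complement, in capitals. CXCL2 is at chr4:74099196-74099445, minus strand, and CXCL3 at chr4:74038690-74038939, minus strand.
CXCL2: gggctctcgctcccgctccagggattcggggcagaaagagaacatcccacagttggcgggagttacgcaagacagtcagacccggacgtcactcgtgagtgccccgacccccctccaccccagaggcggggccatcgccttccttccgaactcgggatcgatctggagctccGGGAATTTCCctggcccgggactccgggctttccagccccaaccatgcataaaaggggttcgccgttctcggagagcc
CXCL3: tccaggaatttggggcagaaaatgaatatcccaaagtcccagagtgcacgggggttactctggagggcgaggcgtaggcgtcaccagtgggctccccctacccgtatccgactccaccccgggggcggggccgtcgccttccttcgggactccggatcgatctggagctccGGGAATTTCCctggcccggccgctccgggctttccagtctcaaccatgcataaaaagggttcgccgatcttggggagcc
Both held GGGAATTTCC, at 78 to 69 bases before the start in CXCL2 and 79 to 70 in CXCL3. Of the 14 measured list members 6 held the string in any of their listed promoters. The share was 1.73% among all promoters counted singly, which is not a like unit.

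The largest rises that differed from DMSO belonged to genes with varied functions. CRISPLD2, a secreted glycoprotein, had 999, 907 and 880.4 at 6 h and 2966, 2951 and 2784 at 24 h with ICG-001, while in DMSO it went from 749.8, 772 and 775 to 473, 434 and 490.3. It did not differ from DMSO at 6 h (-0.06) and stood 2.19 ± 0.08 above it at 24 h. The change was 1.46 ± 0.08 with the drug and -0.79 ± 0.08 in DMSO. The difference between the time courses was 2.25 ± 0.11 (adjusted p = 2.68e-10).

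DHRS2, a short-chain dehydrogenase, rose from 96, 112 and 108 to 556, 559.9 and 589 with ICG-001 and read 62.1, 68.4 and 63.3 at 6 h and 73.3, 99.2 and 114 at 24 h in DMSO. MMP1, interstitial collagenase, rose from 796, 761 and 808 to 2534, 2585 and 2609 and read 479.7, 472 and 454 at 6 h and 406, 414 and 394 at 24 h in DMSO. The drug arrays at 24 h were apart from all others for both genes, and the changes were 2.23 ± 0.13 (adjusted p = 4.27e-10) and 1.46 ± 0.15 (adjusted p = 3.05e-07). A second, dimmer probe set of DHRS2 rose by 0.90. CYP1A1, the detoxifying enzyme induced through the aryl hydrocarbon receptor, went from 1669.6, 1607 and 1762 to 3749, 3543 and 3633 with the drug and from 392, 359 and 401 to 275, 249 and 238 in DMSO. That was a change of 0.90 ± 0.09 against -0.68 ± 0.09. AHRR, the repressor of that receptor, rose by 0.56 ± 0.07 and 0.49 ± 0.07 in the 2 treatments, and CYP1B1 was flat with the drug at 0.11, or 0.20 in the deposited scaling (adjusted p = 0.0379). S100P, a calcium-binding protein of pancreatic cancers, rose by 0.48 ± 0.06 with ICG-001 and fell by 1.16 ± 0.06 in DMSO.

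CEMIP, which takes part in hyaluronan breakdown, PSCA, a surface antigen, GSDMB, a gasdermin, and CNGA1, a cyclic nucleotide-gated channel, rose by 1.80, 1.63, 1.68 and 1.63 with ICG-001. In DMSO they rose less, by 0.61, 0.71, 0.69 and 0.74, and the difference passed for each (adjusted p = 2.26e-06, 0.00237, 5.73e-05 and 0.000226). ANKRD29 rose by 1.62 ± 0.14 with the drug, or by 1.06 with 64 added before log2, and TNNT1, a troponin, by 1.52 ± 0.27. For TNNT1 the difference from DMSO did not pass (adjusted p = 0.103), though it did in the deposited scaling (1.08, adjusted p = 0.0403). Some risers were dim. CSTA, cystatin A, had 33.4, 27.5 and 31.1 at 6 h and 109, 143 and 109.9 at 24 h, and CEACAM7 had 3.01, 15.3 and 2.7 at 6 h and 30.3, 38.3 and 34.3 at 24 h. Their rises of 1.37 ± 0.17 and 0.95 ± 0.24 shrank to 0.81 and 0.37 when 64 was added instead of 16, and that of CEACAM7 was 2.18 with 1 added. The differences from DMSO, 1.72 ± 0.24 and 1.68 ± 0.34, were 0.95 and 0.63 with 64 added.

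Most of the measured histone genes rose between 6 and 24 h. Of 5 measured, 4 rose with ICG-001, with a median of 0.78. In DMSO 2 rose and 1 fell. H2BC5 read 386, 412 and 404 at 6 h and 1283, 1284 and 1312 at 24 h with the drug, against 345, 364 and 346 at 6 h and 418, 416 and 408 at 24 h in DMSO. H2AC6 went from 139, 140.5 and 123 to 446, 446 and 473 with the drug and from 99, 89.6 and 73.8 to 156, 158 and 142 in DMSO. The drug arrays at 24 h were the highest by far for both. The rises of 1.47 ± 0.07 and 1.62 ± 0.10 were larger than in DMSO (adjusted p = 1.1e-07 and 0.000292). H2BC21 rose by 0.78 ± 0.13, with no difference from DMSO that passed (adjusted p = 0.0744), and H4C8 by 0.56 ± 0.15 (adjusted p = 0.00878), a call that ended without ICG-001 24 h replicate 1 or 3 (adjusted p = 0.0574 and 0.0531), and its rise was 0.35 with 64 added before log2. Histone genes are near-identical copies, and the probe set of H2BC5 may read several of them.

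Of 9 measured interferon response genes 4 rose and 0 fell with ICG-001, beside 8.5% and 8.88% of all genes, and 2 rose in DMSO. The change was more positive with the drug than in DMSO for 1 and more negative for 0. EPSTI1, an interferon-induced gene, rose from 169.7, 169 and 173 to 372, 389 and 371, by 0.99 ± 0.08, which was more than in DMSO (difference 0.67 ± 0.12, adjusted p = 0.000594). Its other, dim probe set changed by 0.05. IRF9, a subunit of the interferon-activated ISGF3 complex, rose by 0.30 ± 0.06, with a difference from DMSO of 0.23 that did not pass (adjusted p = 0.179). IFIT1, which binds foreign RNA, rose by 0.50 ± 0.10 with the drug and 0.93 ± 0.10 in DMSO (adjusted p of the difference 0.0679).

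Some of the largest changes over time were shared with the vehicle. CAVIN2, a coat protein of caveolae, had 32.5, 19.4 and 26.1 at 6 h and 204, 182 and 220.4 at 24 h with ICG-001, and 97.8, 102 and 83.2 at 6 h and 536, 464 and 460.2 at 24 h in DMSO. It rose by 2.24 ± 0.12 and 2.37 ± 0.12, and its drug effect was -1.34 at 6 h and -1.47 at 24 h. With 64 added before log2 the rise with the drug was 1.41, and it was 0.68 on a second, dimmer probe set. DEPTOR, an inhibitor of mTOR, went from 86.5, 89.4 and 71.8 to 293, 265 and 258 with the drug and from 59.7, 73 and 58.9 to 210.5, 228 and 259 in DMSO. The differences between the time courses, -0.13 ± 0.17 and -0.17 ± 0.17, did not pass the test (adjusted p = 0.825 and 0.752). SSTR5-AS1, an antisense RNA of the somatostatin receptor gene, rose by 1.88 ± 0.10 and 1.40 ± 0.10, and IGSF5, a junction protein, by 1.53 ± 0.12 and 1.08 ± 0.12.

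Transcription factors FOXA1 and NR0B2 followed that course from a lowered start. FOXA1, a pioneer factor of gut-derived epithelia, had 101, 90.9 and 91.1 at 6 h and 186, 167 and 179 at 24 h with ICG-001 and 253, 259.7 and 272 at 6 h and 642, 563 and 609.5 at 24 h in DMSO. NR0B2, a nuclear receptor corepressor, rose by 1.38 ± 0.14 with the drug and 1.95 ± 0.14 in DMSO. Within each treatment the times did not overlap, and the drug arrays lay below the DMSO arrays of the same hour. The rise with the drug was 0.77 ± 0.10 for FOXA1. The differences from DMSO did not pass (adjusted p = 0.0838 for FOXA1 and 0.111 for NR0B2). NR0B2 was dim, and with 64 added its rise was 0.78. TFF1, a trefoil peptide, and TAGLN, which binds actin, fell in both, by 1.15 ± 0.12 and 1.27 ± 0.12 with ICG-001 and by 1.93 ± 0.12 and 1.86 ± 0.12 in DMSO. Both falls were smaller with the drug (adjusted p = 0.00464 and 0.0466), but for TAGLN the difference did not pass in the deposited scaling (0.58, adjusted p = 0.0534). CLDN3, a claudin, rose by 0.98 ± 0.10 and 1.32 ± 0.10, and KRT16, a stress keratin, fell by 1.04 ± 0.14 with the drug (adjusted p = 1.16e-05), with a difference from DMSO that did not pass (adjusted p = 0.0726).

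Several genes rose in DMSO but little with the drug. MYB, a transcription factor of proliferating progenitors, had 52.6, 40.5 and 45.9 at 6 h and 53.9, 44.5 and 52.2 at 24 h with ICG-001, whereas it went from 101, 117 and 100.1 to 372, 354 and 339 in DMSO. SOSTDC1, an antagonist of BMP and Wnt ligands, had 6.17, 21.4 and 10.8 at 6 h and 26.5, 20.1 and 14.7 at 24 h with the drug and 136, 175 and 123 at 6 h and 420.4, 385 and 392 at 24 h in DMSO. The drug arrays of the 2 times overlapped for both genes, and the DMSO arrays did not. The difference between the time courses was -1.77 ± 0.24 (adjusted p = 6.39e-05) and -1.31 ± 0.28 (adjusted p = 0.00426). LGR5, the stem cell receptor for R-spondins, rose by 0.50 ± 0.12 with the drug and 1.49 ± 0.12 in DMSO (adjusted p of the difference 0.00051), its rise with the drug being 0.32 with 64 added. KRT23, a keratin, had changes of 0.07 ± 0.09 with the drug (adjusted p = 0.721) and 0.93 ± 0.09 in DMSO (adjusted p of the difference 8.6e-05). SOX4 changed by 0.25 ± 0.09 with the drug (adjusted p = 0.0772), which passed in the deposited scaling (0.32, adjusted p = 0.0115), and by 0.79 ± 0.09 in DMSO (adjusted p of the difference 0.0114).

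In all, 14 of 33 listed Wnt and β-catenin targets were measured. Of these 4 rose and 3 fell with ICG-001 and 6 rose and 1 fell in DMSO. The drug effect was below DMSO for 10 at 6 h and for 9 at 24 h, with medians of -0.62 and -1.25. In the deposited scaling 7 rose and 3 fell with the drug. The change was more negative with the drug than in DMSO for 6 and more positive for 1. BMP4, a bone morphogenetic protein, rose by 0.51 ± 0.10 and 0.51 ± 0.10, and RNF43, which removes Wnt receptors, by 0.52 ± 0.10 and 0.47 ± 0.10. TNFRSF19, a TNF receptor relative, rose by 0.80 ± 0.16 with the drug, or by 0.52 with 64 added before log2. In DMSO TNFRSF19 rose by 0.52 ± 0.16 (adjusted p = 0.0452), and the difference did not pass (adjusted p = 0.674). MSX1, a homeobox factor, fell by 0.45 ± 0.11 (adjusted p = 0.00573), or by 0.28 with 64 added. Its change in DMSO was -0.31 ± 0.11 (adjusted p = 0.119), and the difference did not pass (adjusted p = 0.778). No probe set for CTNNB1, EP300, AXIN2, MYC or CCND1 alone was analysed here. CREBBP, the gene of CBP, was dim, at 1.65, 4.4 and 4.14 at 6 h and 2.01, 7.68 and 8.02 at 24 h with ICG-001, and changed by 0.09 ± 0.17 (adjusted p = 0.818).

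**Figure D4:**
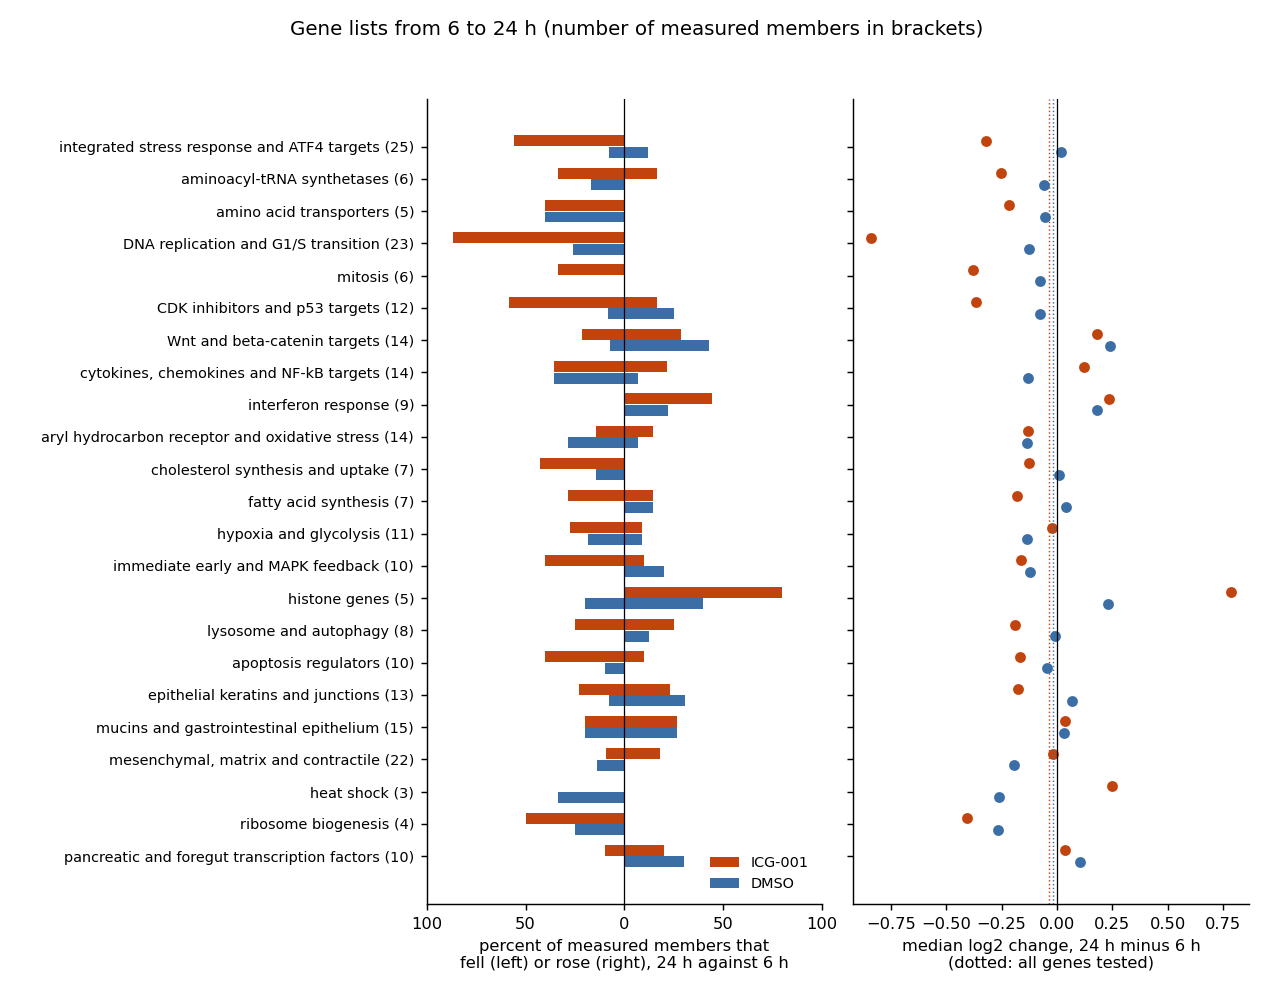
Median log2 change from 6 to 24 h of each gene list with ICG-001 and with DMSO (right; dotted, all genes), and the percent of its measured members that fell or rose (left). DNA replication lies furthest to the left with ICG-001 at -0.84 and histone genes furthest to the right at 0.78, while their DMSO medians are -0.13 and 0.23.

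Few metabolic genes were measured. Of 7 cholesterol genes 3 fell and 0 rose, where over all genes 8.88% fell and 8.5% rose. STARD4, which carries cholesterol between membranes, went from 268, 255 and 263 to 153, 133 and 129.5 with ICG-001 and read 198 to 217 in DMSO. STARD4 fell by 0.99 ± 0.09 and DHCR7, the last enzyme of cholesterol synthesis, by 0.68 ± 0.10, and both differed from DMSO (adjusted p = 7.45e-05 and 0.00464). SQLE, squalene epoxidase, fell by 0.33 ± 0.07 with the drug and 0.31 ± 0.07 in DMSO (adjusted p of the difference 0.953). Of 7 fatty acid genes 1 rose and 2 fell, against 2 and 0 in the deposited scaling. SCD, the stearoyl-CoA desaturase, rose by 0.33 ± 0.04 on its brightest probe set, and the others changed by -0.21 and -0.19 without being called. SREBF1, a regulator of lipid synthesis, fell by 0.27 ± 0.07 (adjusted p = 0.00729), or -0.14 in the deposited scaling (adjusted p = 0.207). FADS2, a desaturase, fell by 0.33 ± 0.11 (adjusted p = 0.0447), or -0.25 in the deposited scaling (adjusted p = 0.113) and -0.21 with 64 added (adjusted p = 0.0616). The call also ended without ICG-001 6 h replicate 1 or 2 and without ICG-001 24 h replicate 2 or 3. It ended as well with only the 12 ICG-001 and DMSO arrays in the fit (adjusted p = 0.0557). Adding the replicate number as a block to that fit gave an adjusted p of 0.0547.

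Of 11 hypoxia and glycolysis genes 1 rose and 3 fell, beside 8.5% and 8.88% of all genes. TPI1, triosephosphate isomerase, fell from 1818, 1691 and 1567 to 892, 1023 and 925 with ICG-001 and read 1878 to 2256 in DMSO. PDK1, which restrains pyruvate dehydrogenase, fell by 0.61 ± 0.13, and P4HA2, a subunit of collagen prolyl hydroxylase, rose by 0.35 ± 0.06 with the drug and fell by 0.39 ± 0.06 in DMSO. VEGFA, the angiogenic factor raised by the drug at 6 h (1.61 ± 0.06), stayed flat at 3772, 3771 and 3692 at 6 h and 3930.4, 4017 and 3734 at 24 h. GCLM, of glutathione synthesis, fell by 0.76 ± 0.09 with the drug and 0.75 ± 0.09 in DMSO (adjusted p of the difference 0.989).

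Other early drug effects split between the classes. HBEGF, a ligand of the EGF receptor, went from 2684, 2482 and 2532 to 1598, 1544 and 1569.9 with ICG-001 and read 487 to 592 in DMSO, a change of -0.68 ± 0.07. TSC22D3, the glucocorticoid-induced leucine zipper protein, fell by 0.77 ± 0.07 and LURAP1L by 0.76 ± 0.09, and both stayed above DMSO at 24 h, by 2.02 and 0.93. PCK2, mitochondrial phosphoenolpyruvate carboxykinase, rose on by 0.18 ± 0.05 (adjusted p = 0.0191), which was 0.28 in the deposited scaling and 0.15 with arrays centred on their median (adjusted p = 0.2), and it did not pass without ICG-001 6 h replicate 2 or 3 or 24 h replicate 1 (adjusted p = 0.0847, 0.0634 and 0.112). KDM7A, a histone demethylase, rose by 0.47 ± 0.12 (adjusted p = 0.0101), a call that ended without ICG-001 6 h replicate 3 (adjusted p = 0.0748) or 24 h replicate 2 (0.0641). LAT2, an adaptor protein, rose by 0.26 ± 0.08 (adjusted p = 0.0209), and this ended when any 1 ICG-001 array but 6 h replicate 3 was left out and with arrays centred on their median (0.19, adjusted p = 0.138).

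The remaining lists held changes in both directions or few measured members, and their counts stand beside the 17.4% called among all genes. Of 14 measured genes of the aryl hydrocarbon receptor and oxidative stress 2 rose and 2 fell with ICG-001, or 4 and 2 in the deposited scaling. Of 10 immediate early and MAPK feedback genes 1 rose and 4 fell, of 13 keratin and junction genes 3 rose and 3 fell, and of 15 mucin and gastrointestinal genes 4 rose and 3 fell. Among 10 transcription factors of the pancreas and foregut 2 rose and 1 fell. Both genes of ribosome biogenesis that changed, of 4 measured, fell, and 0 of 3 heat shock genes were called.

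Matrix and contractile genes moved little as a group, with 4 rises and 2 falls among 22 measured, while 5 changed more positively than in DMSO. SYNM, an intermediate filament protein lowered by the drug at 6 h (-1.60), rose from 99, 108 and 82.7 to 152, 199 and 149. THBS1, thrombospondin-1, rose by 0.37 ± 0.05 with ICG-001 and fell by 0.24 ± 0.05 in DMSO, and MMP14, a membrane-bound protease, rose by 0.55 ± 0.11 with the drug. The fibroblast markers COL1A1, COL3A1 and DCN summed to 124 to 140 on the ICG-001 arrays at 6 h and 108 to 123 at 24 h, the endothelial markers PECAM1 and KDR to 9.87 to 11.01 and 5.41 to 18.25, and the leukocyte markers PTPRC, CD79A and MS4A1 to 43.7 to 46.4 and 34.02 to 50.6. Acinar and islet markers were not among the genes analysed. The duct marker sum fell from 6 to 24 h with ICG-001, and KRT7 fell with it, while KRT19 changed by -0.40 ± 0.18 (adjusted p = 0.166). MUC1 moved the other way, with a rise of 0.23 whose call ended with no intensity trend (adjusted p = 0.174). In DMSO the sum was 2715 to 2854 at 6 h and 2824 to 3339.5 at 24 h. The part of the fall in the other results was not tested.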

How the data were processed

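The authors deposited 1 table of linear intensities for 9554 probe sets on 16 Affymetrix arrays. How probe sets were summarised and scaled is not given in the sources used here. The lowest coefficient of variation of any probe set was 0.4, so the table holds genes that vary, and shares of called genes refer to such genes. Arrays have no read depth, and their number, 3 a group, limits the precision. Median intensities were 20.6 to 28.6 on the ICG-001 arrays.

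The intensities plus 16 were converted to log2 and quantile-normalized over the 16 arrays. The annotation gave 1 gene for 6442 probe sets, several for 252 and none for 2860, and the brightest probe set stood for each of 5250 genes. Group means were fitted to all 16 arrays with limma 3.58.1 (R 4.3.3), with an intensity trend, and p-values were adjusted by Benjamini-Hochberg over the 5250 genes. ± after a log2 value is the SE. Adjusted p-values in the text are from limma. No scan date or other batch is in the labels.

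The comparison and the gene lists were chosen with earlier results of these data known. Named genes were the 12 largest rises and 12 largest falls with non-overlapping arrays, the 3 most changed called genes of each list that had 3 or more, the 6 genes with the largest drug effect at 6 h in each class, the 5 largest differences from DMSO each way, and CREBBP, BIRC5 and CDKN1A. For the rises, falls, classes and differences, the brightest of the groups compared had to exceed the 25th percentile of gene means. A gene that is high in 1 group could pass in this way. CEACAM7, brightest with ICG-001 at 24 h, passed although its mean over all arrays was 4.71 (log2), below that floor of 4.78. Further genes, such as GINS2, HELLS, DDIT3, MTHFD2, CCL20, IL1B, S100P, LGR5, SOSTDC1, TFEB, ATF4 and CHAC1, were named after their values were seen. On simulated intensities 97 of 100 genes changed by 1.5 (log2) and 27 of 100 changed by 0.5 were recovered. Alternatives were the scaling, the number added before log2, a filter on dim genes, the arrays in the fit, the choice of probe set, the intensity trend, a replicate block and leaving out single arrays. Same-numbered arrays of different groups had correlations of deviations from -0.146 to 0.0903, so the numbers were not taken as pairs.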

Additional observations from a re-analysis of the deposited data

Results flagged for a closer look

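The change from 6 to 24 h differed between ICG-001 and DMSO, by the test of that difference in limma, for 410 genes, which included 55 of the 91 genes named by rule. The values below are the change with ICG-001 minus the change with DMSO on the log2 scale, and their causes were not tested.

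In 35 of the named genes the change was more negative with the drug. Among those with a difference beyond 1 it was -2.04 for LGALS2, -1.94 for APLP1, -1.87 for TM4SF4, -1.77 for MYB, -1.76 for MMP7, -1.59 for WDR76, -1.56 for CCNE2 and -1.51 for GDF15. It was also -1.35 for MCM6, -1.25 for TFDP1, -1.22 for EMP2, -1.22 for BCL2L15, -1.17 for FAM111B, -1.09 for SPAG1 and -1.08 for LURAP1L. Below 1 in size it was -0.97 for SESN2, -0.96 for STARD4, -0.96 for TNFRSF10B, -0.85 for ULK1, -0.80 for TBC1D31, -0.79 for TPI1, -0.77 for HKDC1, -0.76 for KRT7, -0.69 for DHCR7 and -0.68 for MAP1LC3B. The smallest of these differences were -0.67 for CXCL3, -0.63 for HBEGF, -0.62 for BIRC5, -0.54 for CARS1, -0.50 for ERN1, -0.48 for MCL1, -0.46 for SREBF1, -0.43 for CTH, -0.35 for TSC22D3 and -0.34 for VEGFA.

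In the other 20 genes the change was more positive with the drug. The difference was 2.25 for CRISPLD2, 1.82 for DHRS2, 1.72 for CSTA, 1.69 for MMP1, 1.68 for CEACAM7, 1.59 for CYP1A1, 1.27 for ANKRD29, 1.23 for H2BC5, 1.19 for CEMIP and 1.00 for GSDMB. It was 0.92 for PSCA, 0.89 for CNGA1, 0.89 for H2AC6, 0.78 for TFF1, 0.74 for P4HA2, 0.67 for EPSTI1, 0.66 for SYNM, 0.59 for TAGLN, 0.48 for SSTR5-AS1 and 0.38 for WARS1. CEACAM7 and CSTA were dim at 6 h, and their differences were 0.63 and 0.95 with 64 added before log2.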

How the results depend on the processing

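Results were recomputed under 23 other settings. Totals called over time with ICG-001, in DMSO and for their difference stayed within 1.5 times their values in the report. So did the rises and falls with ICG-001 and the genes that went on, moved back, stayed flat or changed late. The undecided genes and the totals against DMSO at 6 h and 24 h were not recomputed in every setting. Leaving out single arrays gave 791 to 927 called genes over time with ICG-001, 380 to 451 rises and 400 to 476 falls, 370 to 440 called genes in DMSO and 346 to 406 differences between the time courses. It gave 209 to 276 genes that went on, 164 to 190 that moved back, 169 to 210 that stayed flat and 387 to 498 that changed late. The scaling moved the balance of the calls, since in the deposited scaling 623 genes rose and 386 fell, and the genes below DMSO at 6 h and 24 h numbered 244 and 385. With the replicate number as a block, in a fit of the 12 ICG-001 and DMSO arrays, 1010 genes were called with ICG-001, 496 in DMSO and 460 for the difference. The same 12 arrays without the block gave 1032, 512 and 493. The same-numbered arrays did not deviate together. Among the named genes only FADS2 was without its call in the block fit, and it was already without it in the 12 arrays without the block.

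Of 114 named genes that were called, 101 kept their call in every setting and 13 lost it in at least 1, namely CTH, DDIT4, FADS2, H4C8, KDM7A, LAT2, MUC1, PCK2, SCD, SLC7A5, SREBF1, TFEB and WIPI1. Of these, CTH, FADS2, LAT2, MUC1, PCK2, SLC7A5, SREBF1 and TFEB lost it in the fit with no intensity trend. ATF4 was -0.25 with arrays centred on their median, and SCD was -0.19 on its most variable probe set; the cause was not tested. Dimmer probe sets of CXCL2, FOXA1, TSC22D3 and LAT2 changed by -0.38, 0.27, -0.41 and -0.22 without being called. Signal over background limits CEACAM7, CSTA, NR0B2, ANKRD29, MSX1, CAVIN2, CREBBP and, with the drug, SOSTDC1, whose intensities were low. Near-identical transcripts limit histone and CXCL genes, and the depth of each array cannot be given for intensities.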

Other observations

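Probe sets that the annotation ties to several genes or to none were fitted beside the others. Of 3112 such probe sets 142 rose and 81 fell from 6 to 24 h with ICG-001 (7.17%), against 16.1% of the 6442 probe sets with 1 gene in the same fit. The difference between these shares was not tested.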
